A study of Arabidopsis thaliana with 24 samples.

Results

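The UDP-glycosyltransferase (UGT) genes of Arabidopsis thaliana were followed in messages bound to polysomes, the ribosome clusters of active translation. Members were the rows of the count table whose gene name is UGT with a family number, a subfamily letter and a gene number, which gave 58 of 32833 genes, in 25 subfamilies (for example UGT76E) of 13 families. The rule takes names as the files give them, so UGT genes that stand under another name (such as DOGT1) or only a locus identifier are not members. By RefSeq product names and coding length, 130 UDP-glycosyltransferase genes were found in the annotation, members included, so the 58 are a part of the family. Of the 58 members, 53 passed the filter on low counts in the salt experiment and 50 in the heat experiment. UGT71B8, UGT73C2, UGT78D3, UGT84B1 and UGT84B2 passed in neither, and UGT84B2 had no count in any library. UGT76E1, UGT76E2 and UGT84A1 were tested under salt and not under heat.

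Whole seedlings aged 9 days, of the exa1-1 mutant or of the wild type Col-0 (WT), were kept for 60 min in one of 4 conditions. These were NaCl (MS medium at reduced strength with 200 mM NaCl), its control MS, 39 °C, and its control 23 °C, which gave 8 groups of 3 libraries each, 24 in all. The replicates are described as independent biological replicates. exa1-1 is a single mutant line, and no total RNA was analysed here, so a change in message abundance and a change in ribosome loading cannot be told apart. In whole seedlings, fewer cells of a type and less RNA per cell cannot be told apart either.

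UGTs move a sugar from a UDP-sugar, most often UDP-glucose, onto small acceptor molecules. In plants the acceptors include hormones (salicylate, abscisate, auxin, cytokinins, jasmonates), phenylpropanoids, flavonoids, glucosinolate precursors and foreign compounds. Glycosylation usually makes the acceptor more soluble and often inactive, and prepares it for storage in the vacuole. Many Arabidopsis UGT genes lie in tandem arrays of close relatives, and 41 of the 58 members did so here, in 16 clusters.

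Library totals ran from 17861136 to 20629439 counts. EXA1 (AT5G42950), the gene disrupted in the mutant, had means of 5.53 to 8.23 CPM (counts scaled to a common library size) in the 4 exa1-1 groups and of 52.5 to 103 CPM in the 4 WT groups, as the labels say. Levels are CPM on library sizes scaled by TMM, a method that centres most genes on no change. With library totals alone the median of all genes moved by -1.05 on the log2 scale for heat in exa1-1 and by -1.0 for heat in WT, by -0.20 and -0.15 for salt in exa1-1 and in WT, and by -0.33 and -0.23 for 23 °C over MS in exa1-1 and in WT. Changes are therefore relative to the bulk of genes in the same library. The summed level of 7 root markers was 40.2 CPM in exa1-1 NaCl against 264 CPM in exa1-1 MS, and 43.4 CPM in WT NaCl against 200 CPM in WT MS. It was 65.2 CPM in exa1-1 at 39 °C against 129 CPM at 23 °C, and 54.8 CPM in WT at 39 °C against 113 CPM at 23 °C. Of these 7 markers 6 fell with salt in each genotype, 5 fell and 1 rose with heat in each, and 0 of 7 were at 0 in any group. The 5 shoot markers all rose with salt and with heat in both genotypes, and 0 of 5 were at 0. With library totals alone 3 of the 5 rose with heat in each genotype, while 2 fell in exa1-1 and 1 fell in WT. Their sums were 9393 CPM in exa1-1 NaCl against 7245 CPM in exa1-1 MS, and 17389 CPM in WT NaCl against 10413 CPM in WT MS. They were 45754 CPM in exa1-1 at 39 °C against 25945 CPM at 23 °C, and 53589 CPM in WT at 39 °C against 29272 CPM at 23 °C. The part of these tissue markers in the UGT results was not tested.

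To show the sequence ahead of the genes with large changes, the 250 bases before the annotated start of 3 members are printed 5′ to 3′ on the gene's strand, from RefSeq's TAIR10.1 assembly. UGT74E2 (chr1:1704839-1705088, minus strand) and UGT76E1 (chr5:24007908-24008157, minus strand) were higher in NaCl in both genotypes. UGT72E2 (chr5:26624799-26625048, plus strand) fell with salt in both. Capitals mark 4 short motifs, searched on both strands: ACGTG, the core of abscisate-response elements, TTGAC, the core of W-boxes bound by WRKY factors, TGACG, bound by TGA factors, and GAANNTTC, part of heat-shock elements.
UGT74E2: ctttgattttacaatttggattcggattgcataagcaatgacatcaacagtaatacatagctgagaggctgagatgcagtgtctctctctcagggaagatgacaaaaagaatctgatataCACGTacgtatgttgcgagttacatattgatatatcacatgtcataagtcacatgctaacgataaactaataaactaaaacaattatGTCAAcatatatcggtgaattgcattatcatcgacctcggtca
UGT76E1: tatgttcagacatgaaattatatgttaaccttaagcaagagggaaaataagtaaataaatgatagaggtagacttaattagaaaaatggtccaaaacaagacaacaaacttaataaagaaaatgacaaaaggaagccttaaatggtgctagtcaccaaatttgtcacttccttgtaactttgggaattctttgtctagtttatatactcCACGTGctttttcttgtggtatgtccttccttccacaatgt
UGT72E2: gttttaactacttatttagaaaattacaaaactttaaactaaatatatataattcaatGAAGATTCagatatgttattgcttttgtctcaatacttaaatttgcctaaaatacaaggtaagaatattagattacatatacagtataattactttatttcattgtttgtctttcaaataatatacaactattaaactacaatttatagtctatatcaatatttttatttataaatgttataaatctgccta

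The UGT74E2 window held 1 match to ACGTG and 1 to TTGAC, and the UGT76E1 window held a palindrome that matches ACGTG on both strands. The UGT72E2 window held 1 match to GAANNTTC. Over the family, ACGTG occurred in 34.5% of the 58 windows and in 22.9% of 27443 windows of the same length before nuclear protein-coding genes. TTGAC occurred in 53.4% of member windows and 44.9% of all windows, TGACG in 20.7% and 18.6%, and GAANNTTC in 8.62% and 9.55%. Letters can be shared, since TGACGTG holds both TGACG and ACGTG and TTGACG holds both TTGAC and TGACG. Of the 19 members that rose at least 2-fold with salt in WT, 8 had ACGTG, against 1 of the 5 that fell as far. In exa1-1 ACGTG was in 7 of the 17 that rose and in 2 of the 7 that fell as far. The share of ACGTG among all genes that rose with salt was not counted. UGT76E1, counted among those that rose in each genotype, passed the filter on low counts through the NaCl groups alone, where it is high. Of the 7 members that rose at least 2-fold with heat in WT, 0 had GAANNTTC. These matches are descriptions of letters in a window and show no bound site.

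The 58 members together were more abundant on polysomes under salt, and their make-up was different. Here and below, the family, its sum and its subfamilies mean these 58 members, not all UDP-glycosyltransferase genes of the annotation. Levels per gene length, as FPKM scaled by the TMM factors, summed to 1227 ± 15.1 in exa1-1 NaCl and 587 ± 6.69 in exa1-1 MS (SD, n = 3 each). The sums were 1290 ± 9.88 in WT NaCl and 579 ± 8.25 in WT MS (SD, n = 3 each). Each NaCl library was above every MS library, and the same order held in the deposited FPKM, with means of 1473 in exa1-1 NaCl, 804 in exa1-1 MS, 1493 in WT NaCl and 745 in WT MS. Under heat the family sum was 712 ± 10.8 in exa1-1 at 39 °C and 653 ± 19 in exa1-1 at 23 °C. In WT it was 625 ± 6.59 for the 39 °C libraries and 601 ± 2.93 for the 23 °C libraries (SD, n = 3 each). That order depends on the scaling, because the deposited FPKM summed to 406 in exa1-1 at 39 °C against 721 at 23 °C, and to 368 in WT at 39 °C against 664 at 23 °C.

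Shares of the family sum within a library do not depend on the scaling. The monolignol subfamily UGT72E held 1.37% of the family's FPKM in exa1-1 NaCl and 12.5% in exa1-1 MS, and 1.5% in WT NaCl and 12.3% in WT MS. At 39 °C it held 22% in exa1-1, against 17.8% at 23 °C, and 17.4% in WT, against 14% at 23 °C, which made it the leading subfamily at 39 °C in both genotypes. UGT74F, which glucosylates salicylate, held 17.3% in exa1-1 NaCl and 6.69% in exa1-1 MS, and 19.2% in WT NaCl and 8.19% in WT MS. UGT76E held 12.2% in exa1-1 NaCl and 2.32% in exa1-1 MS, and 9.42% in WT NaCl and 2.79% in WT MS. UGT89B, with 1 member, held 8.73% in exa1-1 at 39 °C and 0.627% at 23 °C, and 6.37% in WT at 39 °C and 0.734% at 23 °C. UGT85A, the largest subfamily with 6 members, varied less, between 7.46% in WT NaCl and 15.8% in WT at 23 °C.

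**Figure D1:**
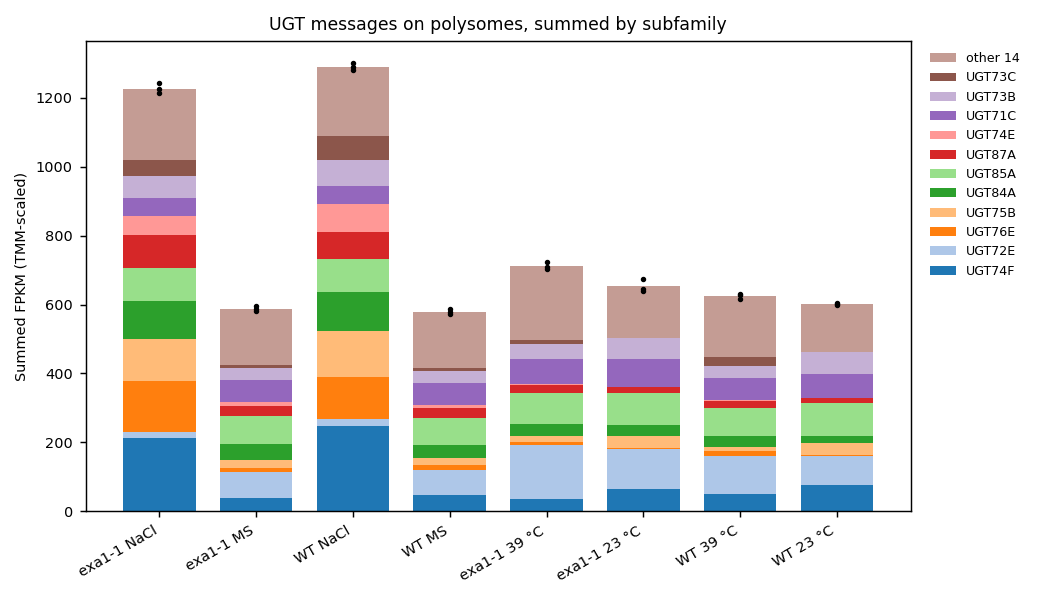
Summed FPKM of the UGT members (y axis, scaled by TMM factors) in the 8 groups (x axis), stacked by subfamily as means of 3 libraries, with 11 subfamilies drawn singly and 14 together, and black points for the family sum of each library. The NaCl bars reach 1227 in exa1-1 and 1290 in WT, and the UGT72E band shrinks in NaCl and widens at 39 °C.

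The salt comparison asks which UGT messages on polysomes differ after 60 min in NaCl. In exa1-1, 29 of the 53 tested members rose and 11 fell, and 73.1% of all 21453 genes tested were called in either direction. In WT, 31 rose and 13 fell, where 71.8% of all genes tested were called. The rises in both genotypes include UGT76E1, which passed the filter through the NaCl groups alone, where it is high. Of the tested members 75.5% were called in exa1-1 and 83.0% in WT. Over all genes 35.9% rose and 37.2% fell in exa1-1, and 36.5% rose and 35.4% fell in WT. The median member log2 fold change was 0.48 in exa1-1 and 0.53 in WT, against -0.02 and 0.00 over all genes. A gene was called at an adjusted p under 0.05, from edgeR's quasi-likelihood test with Benjamini-Hochberg adjustment over all genes. The SE beside a log2 fold change is the change divided by the square root of that test's F.

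**Figure D2:**
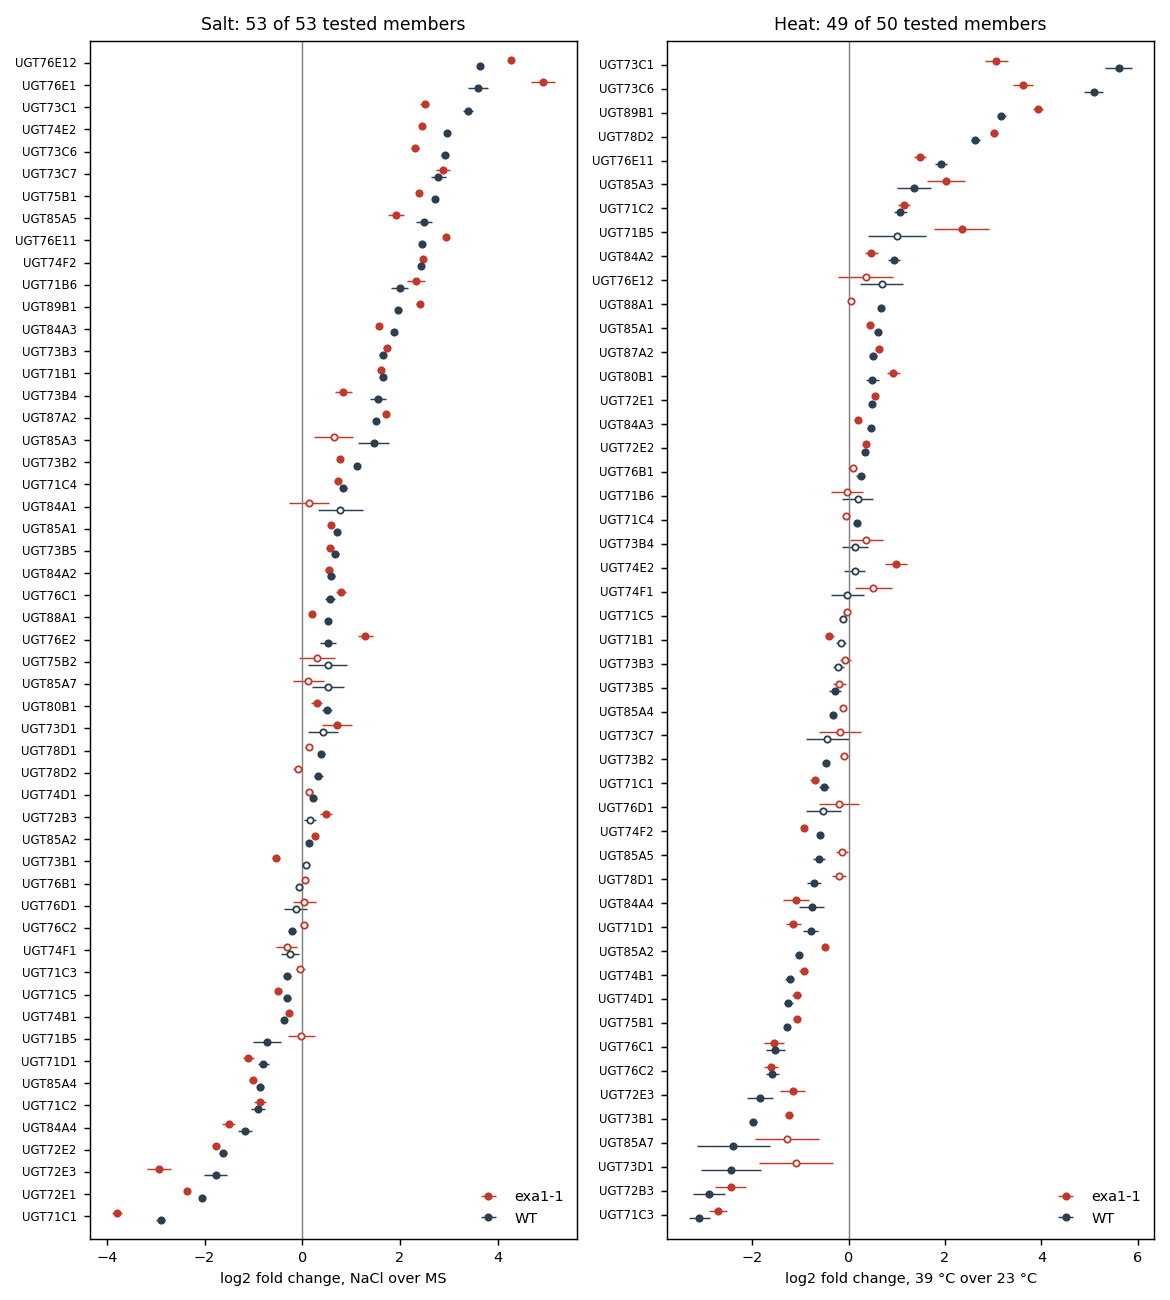
Log2 fold changes (x axis) of each tested member (y axis) for NaCl over MS and for 39 °C over 23 °C, in exa1-1 (red) and WT (dark), with bars of 1 SE, filled where called and open where not. UGT75B2 is not drawn under heat because it had 0 counts in exa1-1 at 39 °C. UGT76E1 passed the filter for salt through the NaCl groups alone. For heat, UGT72B3 and UGT73C7 passed it through the 23 °C groups alone, and UGT73D1 and UGT85A7 through WT at 23 °C alone. Under salt UGT76E12 (4.27 in exa1-1, 3.63 in WT) and UGT71C1 (-3.80 in exa1-1, -2.90 in WT) lie near opposite ends.

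UGT74F2, which acts on salicylate, and UGT75B1, which acts on a related benzoate, rose with salt. UGT75B1 is outside the preset group of salicylate, benzoate and N-hydroxypipecolate UGTs. Of the 5 tested members of that group, 1 rose and 0 fell in exa1-1, and 1 rose and 1, UGT71C3, fell in WT. UGT74F2 forms the salicylate glucose ester and was the most abundant member per gene length in NaCl in both genotypes. UGT74F2 had 370, 369 and 365 CPM in exa1-1 NaCl, against 68.6, 65.8 and 64.4 CPM in exa1-1 MS. In WT it had 433, 425 and 430 CPM in NaCl, against 78.9, 81.4 and 78.2 CPM in MS. Every NaCl library lay above every MS library, and the log2 fold change was 2.46 ± 0.042 in exa1-1 (SE, adjusted p = 2.99e-37) and 2.43 ± 0.042 in WT (adjusted p = 4.46e-37). Its tandem neighbour UGT74F1, which forms the salicylate glucoside, was not called, with -0.32 ± 0.214 in exa1-1 and -0.25 ± 0.189 in WT. UGT76B1, which glucosylates isoleucic acid, salicylate and N-hydroxypipecolate, was not called either, with 0.05 ± 0.058 in exa1-1 and -0.07 ± 0.059 in WT. UGT75B1, known for the glucose ester of p-aminobenzoate, rose by 2.38 ± 0.046 in exa1-1 and 2.72 ± 0.047 in WT. It had 266, 254 and 258 CPM in exa1-1 NaCl, against 46.2, 52.2 and 49.8 CPM in MS, and 293, 282 and 279 CPM in WT NaCl, against 41.6, 44.5 and 43.2 CPM in MS. UGT75B2, its neighbour, was not called in either genotype.

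Hormone-conjugating members differed in their salt response. UGT71B6, which glucosylates abscisate, rose by 2.33 ± 0.184 in exa1-1 (adjusted p = 1.21e-14) and by 1.99 ± 0.172 in WT (adjusted p = 1.85e-13). It had 7.56, 5.56 and 6.05 CPM in exa1-1 NaCl, against 0.929, 1.7 and 1.14 CPM in MS, and 7.33, 6.85 and 7.05 CPM in WT NaCl, against 1.81, 1.48 and 2.01 CPM in MS. UGT71C5, which also forms the abscisate glucose ester, fell by 0.49 on the log2 scale in exa1-1 and by 0.31 in WT. UGT74E2, which acts on the auxin indole-3-butyrate, had 101, 95.6 and 97.4 CPM in exa1-1 NaCl, against 16.9, 16.8 and 19.5 CPM in MS. In WT it had 144, 145 and 141 CPM in NaCl, against 18.3, 18.0 and 18.9 CPM in MS. UGT74E2 is 89.5% identical in coding bases to AT1G05675, so the division of reads between them is uncertain. The groups did not overlap, and the log2 fold change was 2.45 ± 0.055 in exa1-1 (adjusted p = 2.65e-33) and 2.95 ± 0.054 in WT (adjusted p = 3.11e-36). UGT76C1, which adds glucose to cytokinin ring nitrogens, rose by 0.79 ± 0.104 in exa1-1 and 0.56 ± 0.102 in WT. UGT76C2, which does the same and lies beside it, was not called in exa1-1 (0.03 ± 0.079) and had -0.21 ± 0.086 in WT, a call lost (adjusted p up to 0.136) without any 1 of WT NaCl 1, WT NaCl 3, WT MS 1 and WT MS 3. UGT85A1, which glucosylates zeatin on oxygen, rose by 0.59 ± 0.048 in exa1-1 and 0.71 ± 0.047 in WT.

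UGT76E2, UGT76E11 and UGT76E12 of the UGT76E subfamily rose with salt in both genotypes. UGT76E12, a flavonol glucosyltransferase in vitro, had 156, 145 and 153 CPM in exa1-1 NaCl, against 7.92, 8.05 and 7.3 CPM in MS. In WT it had 124, 121 and 120 CPM in NaCl, against 9.47, 9.89 and 10.1 CPM in MS. The groups lay far apart, with log2 fold changes of 4.27 ± 0.059 in exa1-1 (adjusted p = 1.18e-40) and 3.63 ± 0.058 in WT (adjusted p = 2.19e-38). Its neighbour UGT76E11 rose by 2.94 ± 0.058 in exa1-1 and 2.44 ± 0.058 in WT. UGT76E1, which glucosylates hydroxylated jasmonate, passed the filter through the NaCl groups alone, where it is high, so only its levels are given here. It had 7.05, 8.38 and 8.23 CPM in exa1-1 NaCl, against 0.202, 0.29 and 0.266 CPM in MS. In WT it had 10.1, 8.08 and 7.38 CPM in NaCl, against 0.981, 0.349 and 0.728 CPM in MS. UGT76E11 and UGT76E12 share 87.7% of their coding bases and UGT76E1 and UGT76E2 88.4%, so the division of reads within each pair is uncertain.

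Phenylpropanoid UGTs went in opposite directions within the pathway. The 3 UGT72E members, which glucosylate monolignols and their aldehydes, all fell in both genotypes. UGT72E2 and UGT72E3 share 89.5% of their coding bases, so the division of reads between them is uncertain. UGT72E1 had 19.1, 16.8 and 18.1 CPM in exa1-1 NaCl, against 91.9, 93.4 and 88.4 CPM in MS, and 21.1, 21.7 and 20.0 CPM in WT NaCl, against 86.7, 90.8 and 83.6 CPM in MS. No NaCl library came near an MS library, and the log2 fold change was -2.36 ± 0.058 in exa1-1 (adjusted p = 5.79e-32) and -2.06 ± 0.057 in WT (adjusted p = 5.17e-30). UGT72E2, which forms coniferin, changed by -1.77 ± 0.079 in exa1-1 and -1.63 ± 0.078 in WT. Of the 4 UGT84A members, which make glucose esters of sinapate and other hydroxycinnamates, UGT84A3 rose by 1.57 ± 0.045 in exa1-1 and 1.88 ± 0.046 in WT, and UGT84A2, a sinapate glucosyltransferase, by 0.55 ± 0.082 and 0.59 ± 0.084. UGT84A4, next to UGT84A3 on chromosome 4 and 80.3% identical to it in coding bases, changed by -1.51 ± 0.133 in exa1-1 and -1.17 ± 0.139 in WT. UGT84A4 had 3.05, 3.42 and 3.16 CPM in exa1-1 NaCl, against 8.44, 9.09 and 9.58 CPM in MS. UGT84A1, which passed the filter through exa1-1 MS alone, was not called, with 0.14 ± 0.413 in exa1-1 and 0.78 ± 0.47 in WT.

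Group D UGTs of the UGT73B and UGT73C subfamilies, known as responsive to pathogens, oxidative stress and foreign compounds, mostly rose. In UGT73B 4 of 5 members rose in each genotype, and in UGT73C all 3 tested members did. UGT73C6, which acts on flavonols and brassinosteroids, had 40.3, 38.9 and 40.3 CPM in exa1-1 NaCl, against 7.84, 6.47 and 9.62 CPM in MS. In WT it had 72.5, 72.5 and 69.9 CPM in NaCl, against 10.6, 9.67 and 8.1 CPM in MS. The groups stood apart, with log2 fold changes of 2.30 ± 0.087 in exa1-1 (adjusted p = 6.53e-24) and 2.91 ± 0.081 in WT (adjusted p = 4.25e-28). UGT73C1, which can glucosylate cytokinins, rose by 2.50 ± 0.09 in exa1-1 and 3.39 ± 0.095 in WT, and UGT73C7 by 2.88 ± 0.143 and 2.78 ± 0.152. UGT73B3 rose by 1.73 ± 0.073 in exa1-1 and 1.64 ± 0.073 in WT. It shares 88.8% of its coding bases with UGT73B2, so the division of reads between them is uncertain. UGT73B1, in the same cluster, changed by -0.54 ± 0.087 in exa1-1 and by 0.08 ± 0.086 in WT, where it was not called. UGT73B4 lies inside the gene model of UGT73B5 on the same strand, over 1866 bases, so their reads cannot be divided with certainty.

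The largest fall with salt among members was that of UGT71C1, known for glucosylating lignans. It had 2.21, 2.37 and 2.36 CPM in exa1-1 NaCl, against 29.5, 33.5 and 33.1 CPM in MS, and 3.52, 3.97 and 4.05 CPM in WT NaCl, against 27.0, 30.1 and 28.9 CPM in MS. The ranges did not meet, and the log2 fold change was -3.80 ± 0.103 in exa1-1 (adjusted p = 2.26e-30) and -2.90 ± 0.096 in WT (adjusted p = 2.76e-27). Its neighbours UGT71C2 (-0.87 ± 0.128 in exa1-1, -0.91 ± 0.136 in WT) and UGT71D1 (-1.11 ± 0.115 in exa1-1, -0.80 ± 0.116 in WT) fell too, while UGT71C4 of another cluster rose by 0.72 ± 0.065 in exa1-1 and 0.84 ± 0.067 in WT. UGT87A2, which affects flowering time, rose by 1.72 ± 0.047 in exa1-1 and 1.5 ± 0.047 in WT, and UGT89B1 by 2.40 ± 0.07 and 1.96 ± 0.07. UGT74B1, which completes the glucosinolate core, fell slightly, by 0.28 on the log2 scale in exa1-1 and by 0.37 in WT. The flavonol 3-O-rhamnosyltransferase UGT78D1 was not called in exa1-1 (0.13 ± 0.071) and rose by 0.39 ± 0.069 in WT.

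**Figure D3:**
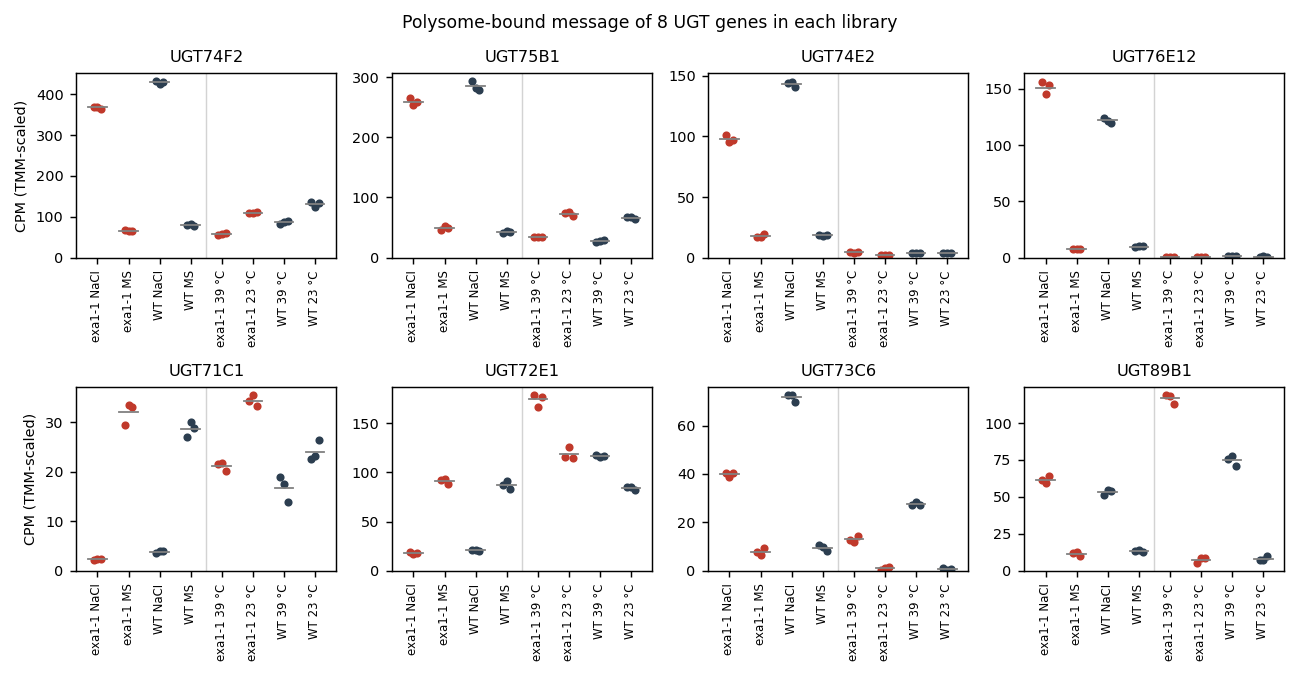
CPM (y axis, TMM-scaled, linear from 0) of 8 members in each library (points) with the mean of 3 (grey line), for exa1-1 (red) and WT (dark) in the 8 groups (x axis). UGT74F2, UGT75B1, UGT74E2 and UGT76E12 peak in NaCl, UGT71C1 and UGT72E1 are lowest there, and UGT89B1 is highest at 39 °C, at 117 CPM in exa1-1 and 74.7 CPM in WT.

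The heat comparison asks the same of 60 min at 39 °C. In exa1-1, 16 of 50 tested members rose and 16 fell, where 79.4% of all 20923 genes tested were called, and in WT 17 rose and 22 fell, where 80.5% were called. The tested members include UGT72B3, UGT73C7 and UGT75B2, which passed the filter through the 23 °C groups alone. UGT73D1 and UGT85A7 passed it through WT at 23 °C alone. UGT72B3 and UGT75B2 are among the falls in both genotypes. Of the tested members 64.0% were called in exa1-1 and 78.0% in WT. Over all genes 38.0% rose and 41.4% fell in exa1-1, and 38.2% rose and 42.3% fell in WT. With library totals alone the split became 7 up and 37 down in exa1-1 and 5 up and 40 down in WT, so small rises depend on the scaling. Over all 20923 genes that setting gave 2888 up and 15679 down in exa1-1, and 3007 up and 15476 down in WT. The median member log2 fold change was -0.08 in exa1-1 and -0.18 in WT, against -0.10 over all genes in each.

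A few members rose so far with heat that the direction held under library totals as well. UGT89B1, a member of UGT group B, had 119, 118 and 113 CPM in exa1-1 at 39 °C, against 5.55, 8.94 and 8.62 CPM at 23 °C. In WT it had 75.4, 78.0 and 70.7 CPM at 39 °C, against 7.41, 7.58 and 9.84 CPM at 23 °C. The groups were far apart, with log2 fold changes of 3.93 ± 0.1 in exa1-1 (adjusted p = 1.23e-27) and 3.17 ± 0.103 in WT (adjusted p = 1.54e-24). UGT78D2, the flavonoid 3-O-glucosyltransferase, had 84.5, 73.9 and 85.9 CPM in exa1-1 at 39 °C, against 10.7, 9.18 and 10.2 CPM at 23 °C. In WT it had 55.8, 54.7 and 59.1 CPM at 39 °C, against 8.95, 9.34 and 9.0 CPM at 23 °C. These groups did not overlap either, and UGT78D2 rose by 3.02 ± 0.083 in exa1-1 and 2.63 ± 0.087 in WT. The flavonol rhamnosyltransferase UGT78D1 did not rise with heat, at -0.20 ± 0.135 in exa1-1, where it was not called, and -0.72 ± 0.143 in WT.

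UGT73C1 and UGT73C6 had the largest rises with heat in WT. UGT73C6 had 12.7, 11.9 and 14.6 CPM in exa1-1 at 39 °C, against 0.492, 1.33 and 1.42 CPM at 23 °C. In WT it had 27.4, 28.6 and 27.4 CPM at 39 °C, against 0.995, 0.556 and 0.89 CPM at 23 °C. All 39 °C libraries lay above all 23 °C libraries, with log2 fold changes of 3.61 ± 0.205 in exa1-1 (adjusted p = 1.29e-22) and 5.08 ± 0.199 in WT (adjusted p = 8.92e-30). UGT73C1 rose by 3.06 ± 0.241 in exa1-1 and 5.60 ± 0.282 in WT, with 23 °C levels of 0.148 to 1.13 CPM over the 6 libraries. UGT73C7, on chromosome 3, passed the filter through the 23 °C groups alone, so its heat test is not given here. UGT76E11 rose by 1.48 ± 0.127 in exa1-1 and 1.91 ± 0.125 in WT, and its neighbour UGT76E12 was not called, with 0.35 ± 0.58 and 0.69 ± 0.445. UGT71C2 rose by 1.15 ± 0.119 in exa1-1 and 1.07 ± 0.131 in WT.

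Rises smaller than the scaling shift are less certain. UGT72E1 had 179, 166 and 176 CPM in exa1-1 at 39 °C, against 116, 126 and 115 CPM at 23 °C, and rose by 0.55 ± 0.048 in exa1-1 and 0.48 ± 0.05 in WT, which turned to -0.41 and -0.42 with library totals. UGT72E2 rose by 0.35 ± 0.055 in exa1-1 and 0.34 ± 0.058 in WT, which turned to -0.61 and -0.57. Relative to the bulk of genes, UGT72E1 and UGT72E2 therefore rose with heat and fell with salt. The remaining UGT72E member, UGT72E3, fell with heat in both genotypes, as it did with salt. UGT85A1 rose by 0.45 ± 0.072 in exa1-1 and 0.60 ± 0.068 in WT (-0.51 and -0.31 with library totals), UGT87A2 by 0.62 ± 0.081 and 0.50 ± 0.082 (-0.34 and -0.41), and the sterol glucosyltransferase UGT80B1 by 0.93 ± 0.127 and 0.49 ± 0.133 (-0.02 and -0.42).

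The falls with heat given next kept their sign with library totals. UGT71C3, which glucosylates methyl salicylate, had 2.25, 2.31 and 2.53 CPM in exa1-1 at 39 °C, against 13.3, 16.3 and 17.0 CPM at 23 °C. In WT it had 1.19, 2.04 and 0.755 CPM at 39 °C, against 10.5, 12.8 and 11.1 CPM at 23 °C. The ranges lay apart, and the log2 fold change was -2.71 ± 0.186 in exa1-1 (adjusted p = 3.68e-19) and -3.10 ± 0.214 in WT (adjusted p = 4.41e-19). UGT71C5, in the same cluster, was not called, with -0.04 ± 0.071 in exa1-1 and -0.12 ± 0.072 in WT. UGT72B3 and UGT75B2 passed the filter through the 23 °C groups alone, where they are high, so only their levels and count ratios are given. UGT72B3 had 0.391, 1.16 and 1.07 CPM in exa1-1 at 39 °C, against 4.47, 6.38 and 3.58 CPM at 23 °C, and 0.642, 0.557 and 0.755 CPM in WT at 39 °C, against 4.38, 5.86 and 4.35 CPM at 23 °C. The cytokinin N-glucosyltransferases fell together: UGT76C1 changed by -1.55 ± 0.199 in exa1-1 and -1.52 ± 0.199 in WT, and UGT76C2 by -1.61 ± 0.138 and -1.58 ± 0.142. UGT74D1, which acts on oxidised auxin, changed by -1.08 ± 0.089 in exa1-1 and -1.25 ± 0.09 in WT, and the glucosinolate enzyme UGT74B1 by -0.93 ± 0.096 and -1.22 ± 0.095. UGT75B1 changed by -1.08 ± 0.068 in exa1-1 and -1.28 ± 0.071 in WT, and UGT74F2 by -0.93 ± 0.056 and -0.59 ± 0.053. UGT75B2 had 0 counts over the 3 exa1-1 libraries at 39 °C against 70 at 23 °C, at least 11.4-fold lower with a floor of 3 counts over the group. In WT it had 2 counts at 39 °C against 89 at 23 °C, a ratio of 23.9 for 23 °C over 39 °C with a 95% counting interval of 6.42 to 200.

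Mutant and wild type were compared in each condition. In NaCl 10 of 53 tested members were higher in exa1-1 and 18 were lower, where 32.4% of all genes were called. In MS 11 were higher and 7 lower (36.0% of all genes), or 18 higher and 4 lower with library totals alone. Over all 21453 genes library totals alone gave 5717 higher and 2951 lower in MS. At 39 °C 15 of 50 were higher and 8 lower (28.8% of all genes), and at 23 °C 11 were higher and 6 lower (34.8%). The members' share called was 52.8% in NaCl and 46% at 39 °C, above those backgrounds, and 34% in MS and at 23 °C. These shares were not tested against other genes. Most differences were small: only 1 member in NaCl, 1 in MS, 1 at 39 °C and 3 at 23 °C were both called and at least 2-fold apart. Such differences were also few over all genes. Of 21453 genes, 146 were higher and 327 lower in exa1-1 in NaCl, and 127 higher and 393 lower in MS. Of 20923 genes, 160 were higher and 351 lower at 39 °C, and 94 higher and 472 lower at 23 °C.

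Lower levels in stressed exa1-1 seedlings included those of UGT73C6 and UGT73C1. In NaCl UGT73C6 had 40.3, 38.9 and 40.3 CPM in exa1-1 against 72.5, 72.5 and 69.9 CPM in WT, a log2 difference of -0.85 ± 0.068 (adjusted p = 1.03e-12). At 39 °C it had 12.7, 11.9 and 14.6 CPM in exa1-1 against 27.4, 28.6 and 27.4 CPM in WT, a difference of -1.09 ± 0.145 (adjusted p = 2.82e-08). The genotypes did not overlap in either stress, while in MS and at 23 °C UGT73C6 was not called, with -0.23 ± 0.104 and 0.38 ± 0.308. UGT73C1 was lower in exa1-1 by 0.29 on the log2 scale in NaCl and by 0.76 at 39 °C, and higher by 0.59 in MS and 1.78 at 23 °C.  UGT74E2 differed by -0.55 ± 0.046 in NaCl and UGT71C1 by -0.73 ± 0.149, and both were called. UGT74F2 was lower in exa1-1 in every condition, with -0.22 ± 0.039 in NaCl, -0.25 ± 0.043 in MS, -0.59 ± 0.06 at 39 °C and -0.26 ± 0.05 at 23 °C.

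Members higher in exa1-1 were others. In NaCl UGT76E2 had 6.25, 8.2 and 8.36 CPM in exa1-1 against 3.57, 4.93 and 4.19 CPM in WT, a difference of 0.85 ± 0.148 (adjusted p = 1.58e-05). UGT76C2 differed by 0.54 ± 0.085 in NaCl, and UGT76E12 by 0.32 ± 0.044. At 39 °C UGT89B1 had 119, 118 and 113 CPM in exa1-1 against 75.4, 78.0 and 70.7 CPM in WT, a difference of 0.64 ± 0.082 (adjusted p = 1.32e-07). UGT72E1 differed by 0.57 ± 0.05 at 39 °C and 0.50 ± 0.048 at 23 °C, UGT72E2 by 0.48 ± 0.058 and 0.46 ± 0.054, and UGT78D2 by 0.53 ± 0.073 at 39 °C. UGT84A3 was higher in exa1-1 in MS (0.30 ± 0.048), at 39 °C (0.46 ± 0.075) and at 23 °C (0.73 ± 0.069), and had -0.01 ± 0.043 in NaCl, where it was not called. Of the 7 root markers, 0 differed in NaCl, 6 were higher and 1 lower in exa1-1 in MS, 4 were higher at 39 °C and 3 at 23 °C. Of the 5 shoot markers, 5 were lower in exa1-1 in NaCl, 4 in MS, 3 at 39 °C and 4 at 23 °C, where 1 was higher. Their part in these differences was not tested.

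**Figure D4:**
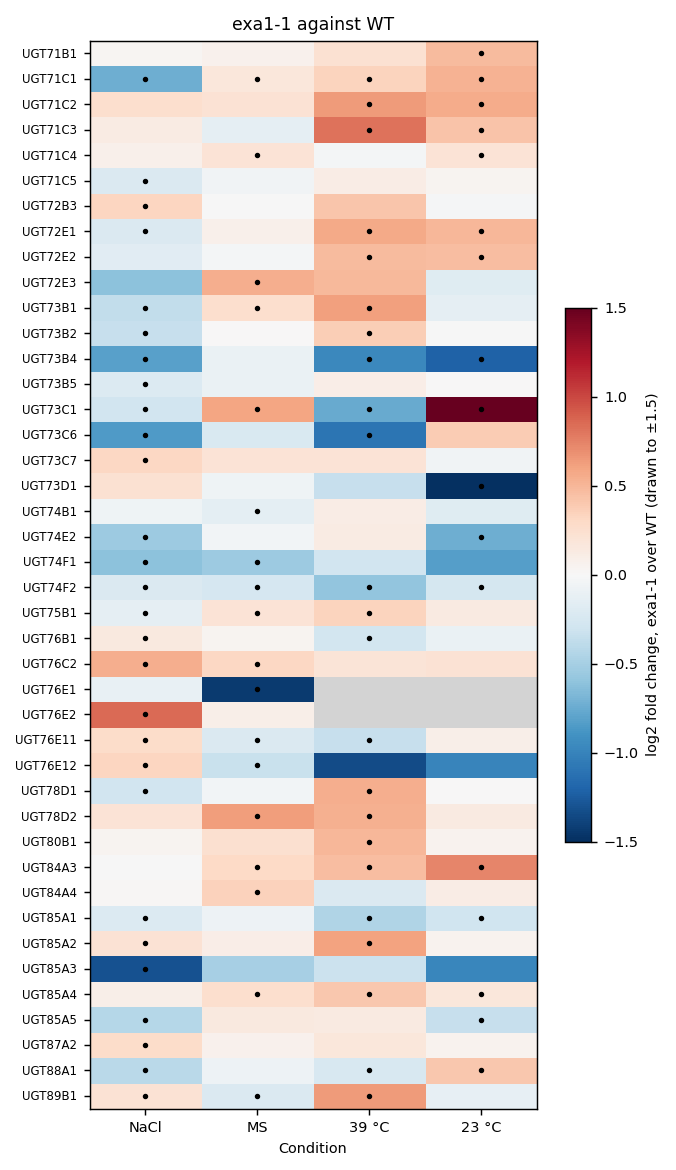
Log2 fold change of exa1-1 over WT (colour, red higher and blue lower in exa1-1, drawn to ±1.5) for the 42 members called in at least 1 condition (rows) in NaCl, MS, 39 °C and 23 °C (columns), with a dot where called and grey where not tested. UGT73C6 is blue in NaCl (-0.85) and at 39 °C (-1.09), and UGT74F2 is blue in all 4 columns.

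The genotype by stress interaction is the log2 change in exa1-1 minus that in WT, and its test asks whether the responses differ. Under salt 6 members had a positive and 13 a negative interaction, 35.8% of those tested, where 20.0% of all genes were called, 10.6% positive and 9.36% negative. The 6 include UGT76E1, which passed the filter through the NaCl groups alone. Under heat 6 were positive and 4 negative, 20% of those tested, where 16.9% of all genes were called, 8.78% positive and 8.10% negative, and with library totals alone 4 were positive and 6 negative. Over all 20923 genes library totals alone gave 1387 positive and 2255 negative under heat. UGT73C1 and UGT73C6 rose less in exa1-1 than in WT under both stresses: the interaction was -0.88 ± 0.143 under salt and -2.54 ± 0.44 under heat for UGT73C1, and -0.61 ± 0.125 and -1.47 ± 0.342 for UGT73C6 (adjusted p = 1.05e-05, 1.87e-05, 0.00035 and 0.00138). UGT89B1 rose more in exa1-1 under both, by 0.44 ± 0.101 under salt and 0.76 ± 0.153 under heat (adjusted p = 0.00134 and 0.000478). UGT76E12 (0.65 ± 0.09) and UGT76E11 (0.49 ± 0.085) rose more with salt in exa1-1, while UGT74E2 (-0.51 ± 0.079) and UGT75B1 (-0.34 ± 0.065) rose less. UGT71C1 fell further with salt in exa1-1 (-0.90 ± 0.164, adjusted p = 6.41e-05). UGT88A1 rose with heat in WT (0.67 ± 0.054, or -0.24 with library totals) and was not called in exa1-1 (0.04 ± 0.054), an interaction of -0.63 ± 0.077 (adjusted p = 1e-08). UGT73B1 fell less with heat in exa1-1 (0.75 ± 0.123), as did UGT85A2 (0.55 ± 0.101).

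**Figure D5:**
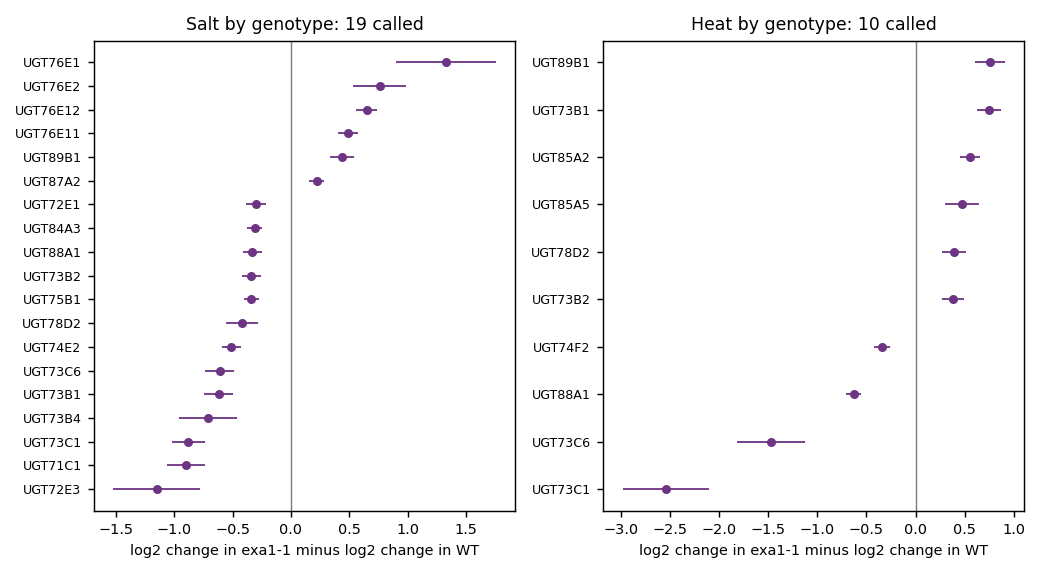
Interaction of each called member (x axis, log2 change in exa1-1 minus log2 change in WT, with bars of 1 SE) under salt (19 members) and heat (10 members). UGT73C1 and UGT73C6 lie left of 0 in both panels and UGT89B1 lies right of 0 in both.

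The unstressed controls of the 2 experiments also differed. In exa1-1 15 of 53 members were higher at 23 °C than in MS and 22 lower, where 66.7% of all genes were called, and in WT 14 were higher and 21 lower (66.1%). With library totals alone these became 11 and 33 in exa1-1 and 12 and 28 in WT. The counts over all genes in that setting are not given here. UGT85A5 was higher at 23 °C by 2.81 ± 0.145 in exa1-1 and 3.28 ± 0.146 in WT, and UGT73B1 by 1.82 ± 0.075 and 2.21 ± 0.077. UGT76E12 differed by -4.06 ± 0.19 in exa1-1 and -3.41 ± 0.159 in WT, UGT73C6 by -2.91 ± 0.185 and -3.53 ± 0.194, and UGT74E2 by -3.01 ± 0.105 and -2.33 ± 0.095. UGT76E12 had 0.76, 0.196 and 0.392 CPM in exa1-1 at 23 °C, against 7.92, 8.05 and 7.3 CPM in exa1-1 MS, so the salt and heat experiments began from different levels of this gene. The series design describes the unstressed condition as a single one, MS medium at 23 °C, while the labels name these controls separately, and what sets them apart is not given in the sources used here. Salt and heat were each compared with their own control.

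Genes around the family were counted in the same fits from lists of known pathway genes. Over all genes 35.9% rose and 37.2% fell with salt in exa1-1 and 36.5% rose and 35.4% fell in WT, and with heat 38.0% rose and 41.4% fell in exa1-1 and 38.2% rose and 42.3% fell in WT. With library totals alone, of all 20923 genes, 2888 rose and 15679 fell with heat in exa1-1, and 3007 rose and 15476 fell in WT. Of 22 detoxification genes of other families (glutathione transferases, transporters and others), 19 rose and 3 fell with salt in exa1-1, and 20 rose and 2 fell in WT, with median log2 fold changes of 1.56 and 1.48. With heat 13 rose and 6 fell in exa1-1, and 11 rose and 7 fell in WT, or with library totals alone 6 and 14 in exa1-1 and 5 and 13 in WT. Of 21 genes of UDP-sugar supply, 10 rose and 9 fell with salt in exa1-1 and 9 rose and 8 fell in WT, while with heat 12 rose and 6 fell in exa1-1 and 13 rose and 5 fell in WT, or with library totals alone 4 and 15 in exa1-1 and 5 and 14 in WT. Sucrose synthase genes SUS1 (2.52) and SUS3 (2.88) were among those that rose with salt in WT. Of 20 glucosinolate pathway genes 16 fell and 4 rose with heat in each genotype, or with library totals alone 19 fell and 1 rose in exa1-1 and 18 fell and 2 rose in WT. Of 19 tested flavonoid pathway genes 8 rose and 7 fell with salt in exa1-1 and 8 rose and 8 fell in WT, the rises in WT including the anthocyanin genes DFR (3.63) and LDOX (5.44). Under heat 11 were tested, and 4 rose and 6 fell in exa1-1 while 6 rose and 3 fell in WT, or with library totals alone 1 and 9 in exa1-1 and 2 and 5 in WT.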

How the data were processed

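Polysome-bound RNA of 24 libraries was analysed. The authors deposited a table of counts per gene and a table of FPKM. The tools named, credited to the submitters' processing notes, were HTSeq 0.6.1p1 and HISAT2 2.0.4, with the build TAIR10, and the counting strand setting is not given in the sources used here. The kit is strand-specific, per the labels' protocols, and 15 members overlap a gene on the other strand.

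Counts were analysed with edgeR 4.0.16 (filterByExpr, minimum count 10 and total 15, TMM, robust quasi-likelihood) in R 4.3.3, in fits of the 12 libraries of each experiment and of all 24 for the controls, after a check on simulated counts. Common biological coefficients of variation were 0.0455, 0.0539 and 0.0491. FPKM were divided by the TMM factor for levels. The gene lengths implied by FPKM equal the TAIR10.1 exon lengths for 56 of 57 members. Named members were, per comparison, the 8 called members with the largest change each way, with mean levels of 1 CPM or more and no overlap between the groups' libraries (not required for interactions), plus members of preset role groups and tandem neighbours, of which the text gives a part. Values of UGT71C4, UGT75B1, UGT76E11, UGT76E12, UGT87A2, UGT88A1 and UGT89B1 in some other comparisons were added after they were seen. The members and lists were chosen with earlier results of these data known. Alternatives were RLE factors, library totals, DESeq2 1.42.0, limma 3.58.1 on log2 FPKM, other filters, a replicate block, other sets of libraries, a 2-fold minimum and leaving out each library. Counts limit the precision of members below about 1 CPM. The upstream sequence of 1 further member is not reported here.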

Additional observations from a re-analysis of the deposited data

Results flagged for a closer look

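The salt response differed between the genotypes, by edgeR's test of the interaction (log2 change in exa1-1 minus that in WT), for 19 members. The values were -1.15 for UGT72E3, -0.90 for UGT71C1, -0.88 for UGT73C1, -0.71 for UGT73B4, -0.62 for UGT73B1, -0.61 for UGT73C6, -0.51 for UGT74E2, -0.42 for UGT78D2, -0.34 for UGT73B2, -0.34 for UGT75B1, -0.33 for UGT88A1, -0.31 for UGT84A3 and -0.30 for UGT72E1. They were 0.76 for UGT76E2, 0.65 for UGT76E12, 0.49 for UGT76E11, 0.44 for UGT89B1 and 0.22 for UGT87A2. UGT76E1 (1.33) is counted among the 19 but passed the filter through the NaCl groups alone, where it is high. No result is drawn from its value. A single library decided some of these calls. UGT72E3 lost its call without WT MS 1, WT NaCl 1 or 3, or exa1-1 NaCl 2 or 3 (adjusted p up to 0.103). UGT73B4 lost it without WT MS 1 or 3, WT NaCl 2 or 3, exa1-1 MS 2, or exa1-1 NaCl 1 or 3 (up to 0.12). UGT78D2 lost it without WT MS 1, WT NaCl 3, exa1-1 MS 3, or exa1-1 NaCl 2 or 3 (up to 0.137), and UGT76E1 without WT MS 1 or 3 or exa1-1 MS 1 (up to 0.183). UGT76E2 lost it without WT MS 3 or WT NaCl 1 (up to 0.0767), and UGT87A2 without WT NaCl 1 or exa1-1 MS 1 (up to 0.0781).

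The heat response differed between the genotypes for 10 members. The values were -2.54 for UGT73C1, -1.47 for UGT73C6, -0.63 for UGT88A1 and -0.34 for UGT74F2, and 0.76 for UGT89B1, 0.75 for UGT73B1, 0.55 for UGT85A2, 0.47 for UGT85A5, 0.39 for UGT78D2 and 0.38 for UGT73B2. UGT85A5 lost its call without any 1 of 10 libraries, that is all but WT 23 °C 3 and WT 39 °C 2 (adjusted p up to 0.165). UGT78D2 lost it without WT 23 °C 2, WT 39 °C 2, exa1-1 23 °C 2, or exa1-1 39 °C 1 or 3 (up to 0.112), and UGT73B2 without WT 39 °C 2, exa1-1 23 °C 3 or exa1-1 39 °C 2 (up to 0.0693).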

How the results depend on the processing

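Counts of called members were robust to most choices and not to a minimum size of change. With a 2-fold minimum they were 24 and 24 for salt in exa1-1 and in WT, 2 for the salt interaction, 19 and 20 for heat in exa1-1 and in WT, 2 for the heat interaction, 1 each for exa1-1 against WT in NaCl, in MS and at 39 °C, 3 at 23 °C, and 15 and 14 for 23 °C over MS in exa1-1 and in WT. Of all 21453 genes in the salt fit, 2716 rose and 2497 fell this far with salt in exa1-1. In WT 2473 rose and 2321 fell, and the salt interaction had 289 positive and 153 negative. Of all 20923 genes in the heat fit, 3578 rose and 5353 fell with heat in exa1-1. In WT 3564 rose and 5471 fell, and the heat interaction had 221 positive and 136 negative. For 23 °C over MS the counts over all genes with this minimum are not given here. Leaving out the 12 members with a relative of at least 85% coding identity, chosen after seeing the data, gave 11 of 41 for the salt interaction. Of these 2 were positive and 9 negative, against 6 positive and 13 negative among the 53 tested members. The member counts with a 2-fold minimum include UGT76E1 for salt, and UGT72B3 and UGT75B2 for heat, which passed the filter only through the groups where they are high.

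Of 453 values of named members tested, 283 were called, and 41 of those lost their call without some library. Among these values, those reversed are given under library totals, limma on log2(FPKM + 1) and limma on log2(FPKM + 0.1), in this order. For heat in exa1-1 they were -0.41, -0.40 and -0.41 for UGT72E1, -0.61, -0.59 and -0.60 for UGT72E2, -0.88, -0.79 and -0.87 for UGT76B1, -0.02, -0.02 and -0.03 for UGT80B1, -0.48, -0.41 and -0.47 for UGT84A2, -0.76, -0.73 and -0.76 for UGT84A3, -0.51, -0.48 and -0.50 for UGT85A1, -0.34, -0.31 and -0.33 for UGT87A2 and -0.92, -0.88 and -0.91 for UGT88A1. For heat in WT they were -0.71, -0.36 and -0.65 for UGT71B6, -0.42, -0.41 and -0.42 for UGT72E1, -0.57, -0.56 and -0.57 for UGT72E2, -0.77, -0.47 and -0.74 for UGT73B4, -0.78, -0.50 and -0.74 for UGT74E2, -0.65, -0.60 and -0.65 for UGT76B1, -0.42, -0.31 and -0.39 for UGT80B1, -0.44, -0.41 and -0.44 for UGT84A3, -0.31, -0.30 and -0.31 for UGT85A1, -0.41, -0.38 and -0.41 for UGT87A2 and -0.24, -0.23 and -0.24 for UGT88A1. For 23 °C over MS in exa1-1 they were -0.19, -0.18 and -0.19 for UGT71C5, -0.20, -0.19 and -0.20 for UGT73B2, -0.02, -0.02 and -0.02 for UGT76C1 and -0.26, -0.23 and -0.26 for UGT84A2. For 23 °C over MS in WT they were -0.19, -0.19 and -0.19 for UGT71C5. None of the 3 settings applies the TMM factors, and the cause was not tested.

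The replicate numbers did not pair the samples: residual correlations of same-numbered libraries ran from -0.0439 to 0.0442, 0 of 30 over 0.1, and in 11 of 30 such pairs of libraries the correlation was best for the shared number. With a replicate block the number of called members was 40 for salt in exa1-1, 44 for salt in WT, 32 for heat in exa1-1 and 39 for heat in WT, as without it, and 1 named value lost its call (UGT71B6 at 23 °C over MS in exa1-1, adjusted p = 0.0547).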
